A study of Mus musculus with 20 samples.

Results

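The livers of 5 wild-type mice (WT1 to WT5, here mice 1 to 5), C57BL/6 animals 6 weeks of age, are described here by the microRNAs (miRNAs) their small RNA libraries hold. The members were taken by label: the 10 sequencing runs of the wild-type group, of 20 runs in the series, which come from 5 of its 10 mice. A library was read in 2 runs, whose counts were added up, and n is the number of mice. The other 5 mice of the series, labelled PiZ, entered only through the list of miRNA names, which was limited to the 880 listed in every file. No comparison of genotypes was made. The labels give no sex and no treatment, and name no sort of cells, so hepatocytes and the other cells of the organ contribute.

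miRNAs are short regulatory RNAs that are cut from hairpin-shaped transcripts, first by Drosha in the nucleus and then by Dicer in the cytoplasm. One arm of the hairpin, 5p or 3p, is usually kept in an Argonaute protein, where its seed (bases 2 to 8) pairs with messenger RNAs and lowers their output. miRNAs with the same seed form a family and can share targets, and hairpins that lie close together are often cut from 1 transcript. In liver, miR-122 is known as a hepatocyte miRNA that acts in lipid metabolism. miR-192 and miR-194 are known from liver, gut and kidney epithelium.

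The libraries held 1307851, 2041667, 1524418, 7043888 and 10012737.5 reads in mice 1 to 5, so that 1 read was worth 0.765 RPM (reads scaled to a total of 1000000) in mouse 1 and 0.0999 RPM in mouse 5. Some deposited counts are fractions. The files of mice 1 to 3 listed 1399 names and those of mice 4 and 5 listed 990. Runs of a library moved 0.238% to 0.665% of the reads between miRNAs. Mice differed far more, and mice 1 and 3 stood apart from the other 3. Between a pair of mice the share moved was 2.54% for mice 4 and 5, 11.4% for mice 1 and 3 and up to 30.8% for mice 1 and 2. Of 112 miRNAs with a mean of 100 RPM or more, mice 1 and 3 were both above the other 3 mice for 60 and both below them for 26, while the next pair in this count, mice 4 and 5, stood apart for 14 and 25. Values are therefore also given for mice 2, 4 and 5 alone, an alternative chosen after the data were seen. RPM are shares of a fixed total, and in whole liver fewer cells of a type and less RNA per cell cannot be told apart. Levels, ranks and ratios are those of reads, and whether different miRNAs were read in proportion to their molecules was not tested.

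The mature sequences below carry most of the reads. They show how much of the miRNA reads rested on a few seeds, and how alike the members of a family are. They are RefSeq sequences (GRCm38.p6), written 5′ to 3′ with the seed in capitals, and 743 of the 880 names matched an entry.
miR-22-3p: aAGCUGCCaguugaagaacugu
miR-192-5p: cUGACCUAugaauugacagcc
miR-26a-5p: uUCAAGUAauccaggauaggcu
miR-26b-5p: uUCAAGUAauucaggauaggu
miR-148a-3p: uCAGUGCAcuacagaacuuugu
miR-148b-3p: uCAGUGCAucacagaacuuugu
miR-21a-5p: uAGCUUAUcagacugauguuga
miR-21c: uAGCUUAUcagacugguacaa
miR-21b: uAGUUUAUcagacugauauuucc
let-7f-5p: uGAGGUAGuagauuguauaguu
let-7a-5p: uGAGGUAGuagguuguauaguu
let-7c-5p: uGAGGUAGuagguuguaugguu
miR-27b-3p: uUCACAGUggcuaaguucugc
miR-27a-3p: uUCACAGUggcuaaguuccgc
miR-92b-3p: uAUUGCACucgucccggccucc
miR-92a-3p: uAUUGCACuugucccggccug
miR-16-5p: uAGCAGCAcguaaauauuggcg
miR-194-5p: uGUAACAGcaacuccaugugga

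miR-22-3p was the most abundant miRNA in every mouse. Its share of the reads was 59.7%, 39.0%, 52.2%, 41.1% and 40.7% in mice 1 to 5, or 46.5% ± 9.04 (SD, n = 5). Mice 1 and 3 were the 2 highest, and the mean of the other 3 mice was 40.2%. The mature miRNA lies at chr11:75463772-75463793 on the plus strand, in an exon of its host transcript Mir22hg and in an annotated exon of the protein-coding gene Tlcd2. The other arm, miR-22-5p, reached 54.6 ± 17.3 RPM (SD, n = 5).

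miR-192-5p was the next in 4 mice, at 44343, 198172, 74723, 172790 and 170426 RPM. Mice 1 and 3 were low, and the other 3 lay close together. The mean was 132091 ± 67977 RPM (SD, n = 5), and 180462 RPM in mice 2, 4 and 5. In mouse 1 miR-192-5p ranked below miR-26a-5p. miR-26a-5p, which is known to slow the cell cycle in liver cells, varied only 1.31-fold, at 67338, 55547, 71473, 56549.6 and 54550.1 RPM. Here mice 1 and 3 were the highest. miR-148a-3p, a miRNA linked to lipoprotein uptake, stood at 26468, 61790, 61832, 55638 and 70194 RPM, with mouse 1 alone low.

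miR-122-5p ranked 11 in the mean order. Its level was 14539.9, 10954, 14001, 13346 and 12513 RPM in mice 1 to 5, a mean of 13071 ± 1404 RPM (SD, n = 5), or 12271 RPM in mice 2, 4 and 5. Its range overlapped those of miR-16-5p (8126 to 15967 RPM) and miR-194-5p (8209 to 15024 RPM), its neighbours in the order. miR-378d, named for a family known from mitochondrial metabolism, lay above it at 15063 ± 5543 RPM (SD, n = 5), with mouse 1 highest at 24259.6 RPM. Its relative miR-378a-3p had 5723 ± 1827 RPM (SD, n = 5), fractional in 6 of 10 runs, and how reads were divided among miR-378 names is not given in the labels, so the place of miR-378d in the order may depend on it.

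miR-21a-5p, a miRNA widely studied in growth and injury, was low in mouse 1 (6554 RPM) and mouse 3 (10743 RPM) and high in mice 2, 4 and 5 (32853, 30002 and 33082 RPM). miR-126a-5p, from a hairpin inside the endothelial gene Egfl7, split the animals in the same way at 6835, 35254, 12111, 27576 and 26576 RPM. let-7f-5p lay at 8909.9, 15916, 14061, 29007 and 26360.2 RPM, so that mice 4 and 5 were above the 3 mice of the longer name list. miR-27b-3p, which is known to act on lipid metabolism, lay between 14059 and 17639 RPM in all 5 mice.

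**Figure D1:**
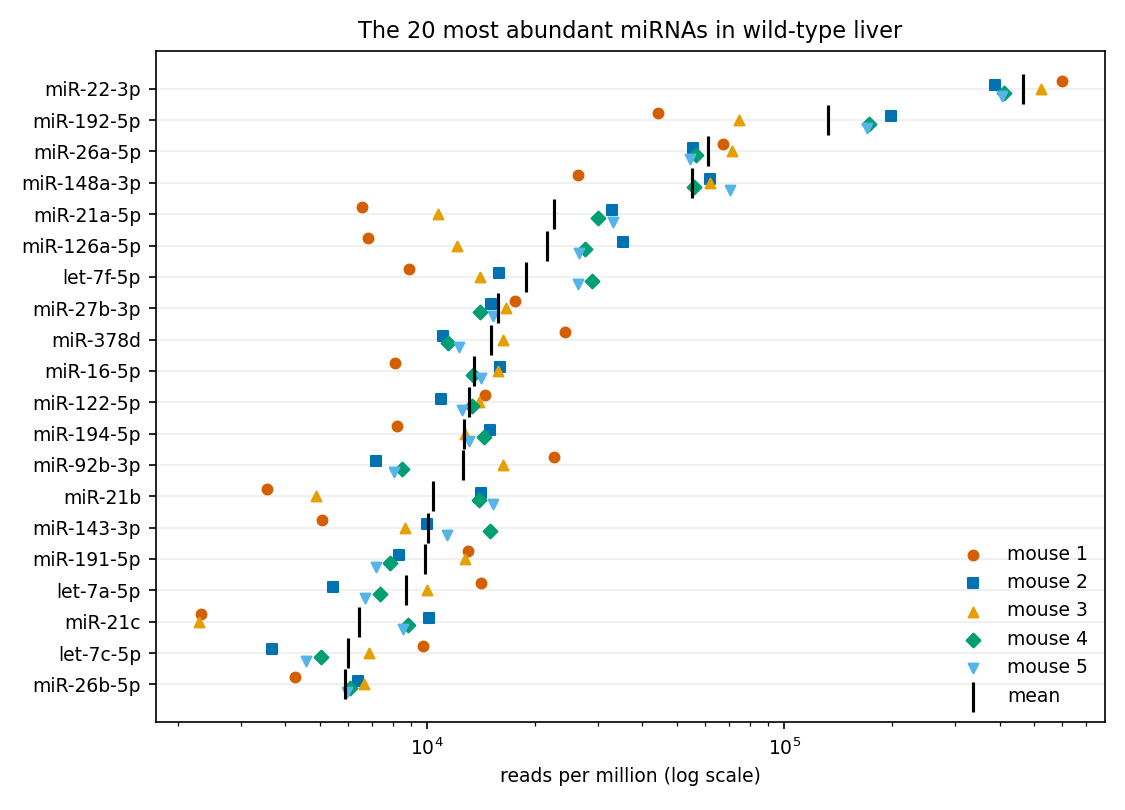
Level of the 20 most abundant miRNAs in RPM (log axis) in each of the 5 mice (coloured symbols), with the mean over mice as a black bar. miR-22-3p stands above all others, and mice 1 and 3 lie below the other 3 for miR-192-5p, miR-21a-5p, miR-126a-5p, miR-21b and miR-21c.

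The reads were held by few miRNAs. Ordered by their mean, 2 miRNAs held 50% of the reads, 9 held 80%, 18 held 90%, 28 held 95% and 77 held 99%. Counted in each mouse alone, 17 to 18 miRNAs held 90% of the reads. The leading 10 together made up 82.1% ± 0.994 and the leading 20 made up 91.7% ± 0.825 (SD, n = 5 each), so that the share of the leading group varied far less than the share of miR-22-3p within it. The inverse Simpson index, the number of equally abundant miRNAs that would give the same evenness, was 2.73, 4.94, 3.45, 4.78 and 4.83 in mice 1 to 5. It was lowest in mice 1 and 3, where miR-22-3p was highest.

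The order itself was loose below the first places. miR-22-3p exceeded miR-192-5p in 5 of 5 mice, and miR-148a-3p exceeded miR-21a-5p in 5 of 5 mice. These were the 2 steps among the first 20 neighbours at which all 5 animals had the same order; among the first 40 there were 3. With 5 animals an exact two-sided paired test cannot reach 0.05, so no step was tested. miR-21a-5p shows how far a rank moved: it was 5 in mice 4 and 5, 6 in mouse 2, 14 in mouse 3 and 18 in mouse 1. miR-10a-5p, from the Hox gene region, kept ranks 23 to 25 in all 5.

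By level, 15 miRNAs had a mean of 10000 RPM or more and held 88.0% of the reads. A further 29 lay between 1000 and 10000 RPM (9.43%), 68 between 100 and 1000 RPM (2.16%) and 96 between 10 and 100 RPM (0.359%). At least 1 RPM in every mouse was reached by 284 miRNAs, and 731 of the 880 had a read in some mouse. In mouse 1 that minimum of 1 RPM lies below 2.29 RPM, the level of 3 reads that a count of 0 still allows. Names near the minimum there rest on very few reads. The number with a read was 443 to 619 a mouse as sequenced, and 429 to 459 expected at the depth of mouse 1.

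Grouped by seed, the 743 names with a sequence formed 635 families, of which 66 had several members. The leading 10 of these families held 85.3% of the reads. Abundant names without a sequence were left out of this order, among them miR-126a-5p (21670.5 RPM), miR-122-5p (13071 RPM) and miR-143-3p (10025 RPM). miR-22-3p had no family member in the list. The miR-192/215 seed held 13.2% ± 6.80, the miR-26 seed 6.70% ± 0.760 and the miR-148/152 seed 5.56% ± 1.69 (SD, n = 5 each). The seed of miR-21a-5p and miR-21c held 0.888%, 4.30%, 1.30%, 3.88% and 4.16% in mice 1 to 5. miR-27 held 1.60% ± 0.146, the miR-378d seed 1.51% ± 0.554, the miR-92/25 seed 1.41% ± 0.718 and the miR-15/16/195 seed 1.40% ± 0.321 (SD, n = 5 each). No other name with reads had the miR-378d seed (CUGGCCU). That of miR-378c is CUGGACU, and miR-378a-3p had no sequence and was not placed. The miR-30 family held 0.469% by sequence, and 0.947% once miR-30b-5p and miR-30d-5p were placed by name.

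**Figure D2:**
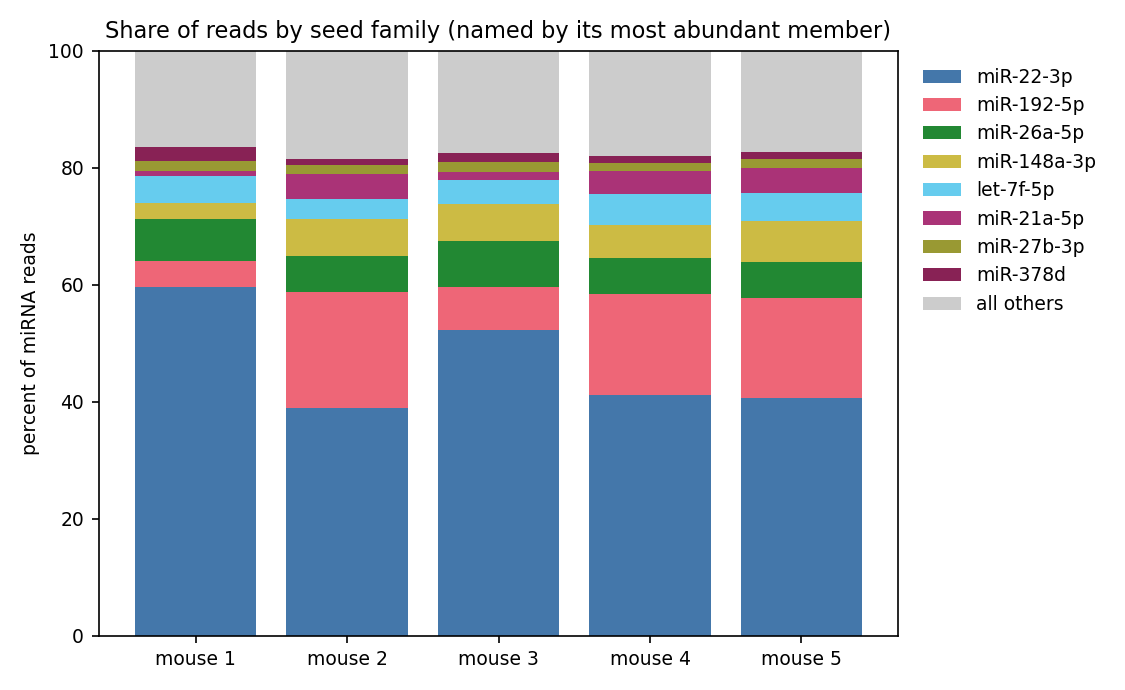
Share of miRNA reads (percent, stacked bars from 0 to 100) of the 8 leading seed families in each of the 5 mice, each named by its most abundant member. Families hold only names with a sequence, so miR-126a-5p, miR-122-5p and miR-143-3p fall among all others. miR-22-3p runs from 39.0% to 59.7% and the miR-192-5p family from 4.43% to 19.8%, while the miR-26a-5p family stays between 6.05% and 7.81%.

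The let-7 family, whose members hold back growth and stem cell programmes, had the most members, 11 with the seed, and held 4.54%, 3.39%, 4.19%, 5.38% and 4.90% of the reads in mice 1 to 5. That total of 4.48% ± 0.753 (SD, n = 5) was steadier than its makeup. let-7f-5p made up 19.6% of the family in mouse 1, 46.9% in mouse 2, 33.6% in mouse 3, 53.9% in mouse 4 and 53.8% in mouse 5. let-7a-5p, which differs from let-7f-5p by A12G (position 12 from the 5′ end, the base of let-7f-5p first), went the other way, with 31.1% in mouse 1 and 13.7% in mice 4 and 5. The ratio of let-7f-5p to let-7a-5p thus ran from 0.631 to 3.93 over the mice. let-7c-5p, which differs from let-7f-5p by A12G and A19G, made up 9.36% to 21.4% of the family. let-7g-5p was even at 10.6% to 14.05%. Counts of let-7f, let-7a, let-7c, let-7g and let-7i were fractional in all 10 runs, so they are not whole reads of 1 name, and the rule behind them is not given in the labels.

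Near-identical names differed in how steady their ratio was. miR-21b differs from miR-21a-5p at C4U, in the seed, and at G18A, G21U and A22C. Although miR-21a-5p itself varied 5.05-fold, its ratio to miR-21b stayed between 1.85 and 2.33 in the 5 mice. The mature miR-21c has the first 15 bases of miR-21a-5p, and the ratio of miR-21a-5p to miR-21c lay between 2.82 and 4.69. miR-6389 likewise opens with the first 15 bases of miR-130a-3p, and miR-130a-3p was 1.40 to 2.64 times as abundant. miR-30a-3p and miR-30e-3p, apart only at G18A and fractional in 5 and 2 of 10 runs, were nearly level at a ratio of 1.02 to 1.12. miR-141-3p and miR-200a-3p have their first 16 bases in common, and their ratio was 0.987 to 1.00. Both were fractional in 7 of 10 runs, and they had the same RPM in mice 1, 2 and 3 (9.56, 9.31 and 16.1). Whether such names share reads of the same molecules was not tested.

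Other close relatives lay far apart in level. miR-192-5p had 132091 RPM and miR-215-5p 6.53 ± 4.74 RPM (SD, n = 5). The mean of miR-148a-3p was 163 times that of miR-148b-3p, and the lowest mouse still had a ratio of 79.3. miR-27b-3p, which differs from miR-27a-3p only at U19C, was 48.5 to 74.0 times as abundant. miR-92b-3p exceeded miR-92a-3p by 25.4 to 34.0 times, differing from it at C10U and C21G. miR-10a-5p exceeded miR-10b-5p by a ratio of means of 85.2, with a range over mice of 33.6 to 302. miR-30a-5p exceeded miR-30e-5p by 447 to 709 times, although their 3p arms, above, were level; miR-30c-5p, of the same seed, was near miR-30a-5p at 2013 ± 479 RPM (SD, n = 5). Both names were fractional in some runs for miR-192-5p and miR-215-5p, miR-148a-3p and miR-148b-3p, miR-27b-3p and miR-27a-3p, miR-10a-5p and miR-10b-5p, and miR-30a-5p and miR-30e-5p, so these ratios may depend on how the authors divided reads.

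Smaller families differed in how their members were split. The miR-29 family, known to lower collagen production, was led by miR-29a-3p at 5825, 3227, 6198, 3127 and 3152 RPM, with mice 1 and 3 high. Its close relative miR-29c-3p, which differs only at C10U, went the other way, at 466, 898, 549.1, 709.9 and 696 RPM. miR-29b-3p lay between them at 1912 ± 394 RPM (SD, n = 5). In the miR-15/16/195 family, known for restraint of the cell cycle, miR-16-5p held 94.1% to 96.6% of the family's reads in each mouse. miR-15b-5p had 132 ± 63.4 RPM (SD, n = 5) and miR-15a-5p 2.52 RPM. Among relatives of miR-99, miR-99b-5p was 1.43 to 5.31 times as abundant as miR-99a-5p over the mice. miR-103-3p and miR-107-3p, which differ at the last but one base (G22C), kept a ratio of 1.66 to 2.02.

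By position, hairpins on 1 strand with neighbours within 10 kb were taken as a cluster, in GRCm38. miRNAs from hairpins standing alone held 67.2% ± 5.83 of the reads, most of it miR-22-3p. Those from clusters held 19.3% ± 6.27, and those with hairpins at several places, which cannot be assigned to 1 of them, held 13.4% ± 0.820 (SD, n = 5 each). The miR-192 and miR-194-2 hairpins (chr19:6264643-6264932, plus strand) led the clusters at 4.44%, 19.8%, 7.48%, 17.3% and 17.0% of the reads. miR-194-5p, which is also made from a hairpin on chromosome 1, would bring the mean from 13.2% to 14.5%. Within this cluster miR-192-5p varied 4.47-fold over the mice and miR-194-5p 1.83-fold.

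The miR-23b, miR-27b and miR-24-1 hairpins (chr13:63300484-63301275, plus strand) held 1.62% ± 0.151 (SD, n = 5), and miR-27b lies in an annotated exon of the gene 2010111I01Rik. The members of this cluster were far from equal, with miR-27b-3p at 15727.5 ± 1408 RPM, miR-23b-3p at 437 ± 114 RPM and the shared miR-24-3p at 156 ± 67.1 RPM (SD, n = 5 each). miR-143-3p, known from smooth muscle and stromal cells, carried its cluster with miR-145a, which held 1.04% ± 0.347; miR-145a-5p had 329 ± 176 RPM (SD, n = 5 each). miR-191-5p carried its cluster with miR-425 (0.997% ± 0.286), and miR-425-5p had 143 ± 52.6 RPM (SD, n = 5 each). miR-99b, let-7e and miR-125a held 0.294% ± 0.145 (SD, n = 5). miR-125a-5p (1489 RPM) and miR-99b-5p (1186 RPM) were its main products. The cluster with the most hairpins, 71 around Mir466m, held 0.000869% of the reads. The 38 hairpins around Mir379 (chr12:109709060-109747960, plus strand), in an imprinted region, held 0.0192%, 0.0172%, 0.0230%, 0.0170% and 0.0186%. A mean of 1 RPM or more was reached by 13 of its 52 listed miRNAs. Of all 880 names, 149 had no reads and 371 had reads but a mean under 1 RPM, and the rest reached it.

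Arm use was read from 126 hairpins whose arms were both listed and had a mean of 20 or more reads together. The 5p arm held over 50% of these reads in all 5 mice for 59 hairpins and the 3p arm for 56, while for 11 neither arm did. The arm with fewer reads held under 5% for 73 hairpins, 5% to 25% for 32 and at least 25% for 21, with a median of 2.44%. Weighted by reads, 29.5% came from 5p arms, with miR-22, a 3p hairpin, weighing most.

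Of the most abundant hairpins, miR-22, miR-148a, miR-27b and miR-143 used the 3p arm, with 5p shares of 0.0126%, 0.0138%, 0.188% and 0.0117%. miR-192, miR-21a and miR-122 used the 5p arm, at 99.9%, 99.4% and 99.5%. miR-126a was the exception among them, with a 5p share of 80.9%, 91.0%, 81.7%, 89.5% and 89.4% in mice 1 to 5, lowest in mice 1 and 3. miR-151 gave both arms at high level, with a 5p share of 58.1% ± 3.11 (SD, n = 5), and so did let-7d, with 64.4% ± 1.79 (SD, n = 5). miR-30a and miR-30e differed in arm: the 5p share was 83.2% ± 4.36 for miR-30a and 1.06% ± 0.446 for miR-30e (SD, n = 5 each). miR-30a-5p and miR-30e-5p differ only at C13U and were each fractional in 6 of 10 runs, so this difference may depend on how their reads were divided.

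miR-802, miR-1981, miR-335, miR-140, miR-152 and miR-872 came nearest to equal arms. miR-802, a liver miRNA, had a 5p share of 43.0%, 65.4%, 33.9%, 44.8% and 48.6%, on 62 to 1651 reads a mouse. In mouse 3 its exact 95% Clopper-Pearson interval was 22.3% to 47.0%, and in mouse 2 it was 60.2% to 70.3%. miR-872 ran from 20.9% in mouse 1, with an interval of 16.2% to 26.2%, to 59.5% in mouse 5, with an interval of 57.8% to 61.2%. These intervals cover counting error only, since reads are not independent molecules. At a mean of 1000 RPM or more, 0 hairpins changed their leading arm between mice.

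**Figure D3:**
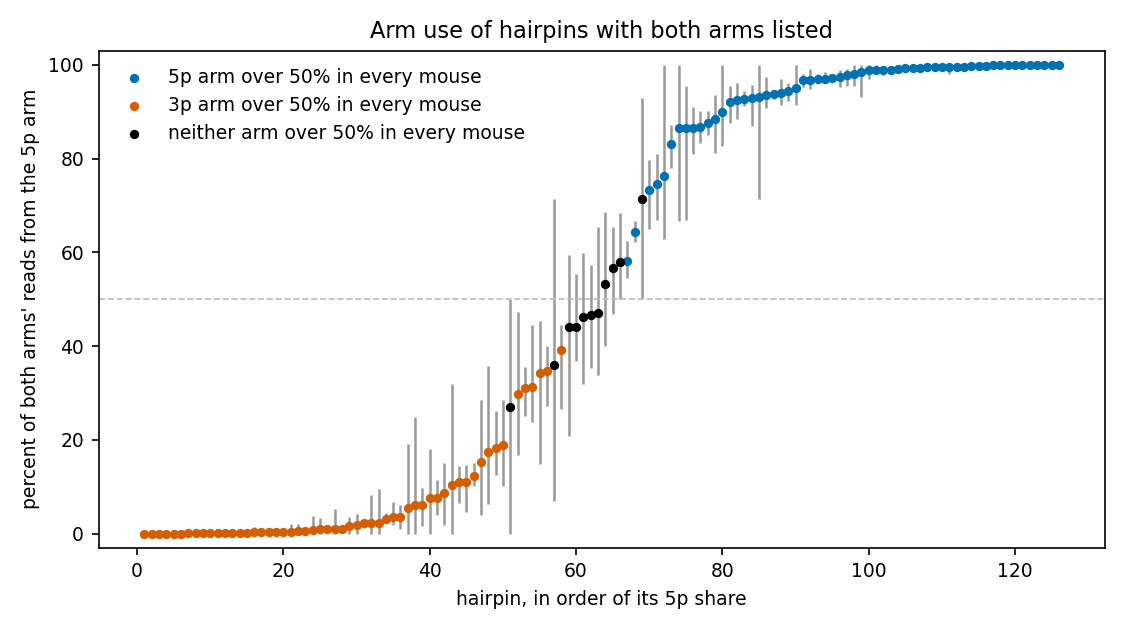
Percent of both arms' reads that came from the 5p arm, for 126 hairpins in order of that share; points are means over 5 mice and grey lines run from the lowest to the highest mouse. The curve is steep in the middle: 73 hairpins have a minor arm under 5%, and 11 (black) have neither arm over 50% in every mouse.

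The labelled tissue was set against marker miRNAs of liver and other cell types. The 4 defining hepatocyte arms (both arms of miR-122 and of miR-802) were read in every mouse and summed to 11208 to 14642 RPM. All 8 hepatocyte names passed 1 RPM in every mouse, with a summed level of 93667, 286209, 163411, 256461 and 266428 RPM, most of it miR-192-5p and miR-148a-3p. Both endothelial names, the arms of miR-126a, were present at 8444 to 38752 RPM. All 7 mesenchymal names were present at 6189 to 15820.2 RPM, led by miR-143-3p, and miR-199a-5p and miR-214-3p lay at 220.1 ± 69.2 and 48.9 ± 25.9 RPM (SD, n = 5 each).

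Blood and bile duct markers were lower. All 6 immune names summed to 975 to 2187 RPM, in which miR-142-5p of leukocytes lay at 236, 1466, 352, 743 and 1229.5 RPM, lowest in mice 1 and 3. miR-150-5p of lymphocytes went the other way, at 473, 204, 316, 152 and 173 RPM, highest in mice 1 and 3. miR-223-3p of neutrophils was at 9.94 to 20.1 RPM. miR-451a of red cells was at 37.5, 44.1, 19.0, 67.2 and 137 RPM, highest in mouse 5. The name that joins miR-486-5p and miR-3107-5p was highest in mouse 1, at 1105 RPM. All 5 biliary names were present and summed to 177 to 328 RPM, led by miR-200c-3p at 118 ± 44.1 RPM (SD, n = 5). Among them miR-141-3p and miR-200a-3p, nearly equal as given above, may not be separate counts.

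Of the lists for other tissues, the muscle names and the defining names of nerve and of kidney, gut and lung were at or near 0, while miR-375-3p, miR-128-3p and miR-10b-5p were not. Muscle names listed in every file numbered 5 of 7 and summed to 0.656 to 2.94 RPM; miR-206-3p had 0 reads in all 5 mice, which allows up to 2.29 RPM in mouse 1 and 0.300 RPM in mouse 5 (3 reads). The defining nerve names miR-9-5p and miR-124-3p summed to at most 0.999 RPM, and miR-128-3p, the other name of that list, lay at 40.7 to 51.2 RPM. The pancreas list summed to 5.39 to 18.4 RPM, nearly all of it miR-375-3p of endocrine cells, at 16.1, 4.90, 9.84, 11.1 and 9.69 RPM. miR-216b-5p and miR-217-5p of the exocrine pancreas had 1 read each in mouse 4 and none in the others. Of the kidney, gut and lung list, which summed to 12.7 to 103 RPM, miR-196a-5p had 0 reads in all 5 mice and miR-449a-5p at most 1.47 RPM, while miR-10b-5p varied from 10.9 RPM in mouse 4 to 102 RPM in mouse 5.

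The spread between mice was measured for the 112 miRNAs of 100 RPM or more as the coefficient of variation (CV, the SD over the mean). Its median was 34.9%, against 3.89% between the runs of a library and 3.14% from counting alone, and it exceeded the CV between runs in 111 of 112 miRNAs. The runs re-read the same library of a mouse, so differences between animals and between library preparations cannot be told apart. The highest mouse was at least 2-fold above the lowest for 65 of them (58.0%). In mice 2, 4 and 5 alone the median CV fell to 10.4%, and in mice 4 and 5 alone it was 6.50%. Mice 1 and 3 had been set apart on these same miRNAs, so a lower CV without them follows in part from that choice. The CVs also rest on fewer mice.

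The steadiest miRNAs included members of high and low level. miR-1843a-5p (335.7, 326, 367, 308 and 309 RPM) had a CV of 7.38%. miR-27b-3p followed with 8.95%, then miR-186-5p with 9.15%, miR-28a-5p with 9.95%, miR-872-3p with 10.3%, miR-122-5p with 10.7%, miR-10a-5p with 11.3% and miR-26a-5p with 12.7%. miR-872-3p was thus steady while its partner arm, miR-872-5p, went from 43.6 RPM in mouse 1 to 189 RPM in mouse 5. Of the abundant names of the hepatocyte list, miR-122-5p varied 1.33-fold, miR-194-5p 1.83-fold, miR-148a-3p 2.65-fold and miR-192-5p 4.47-fold.

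Among the most variable miRNAs, miR-146a-5p, which is induced by inflammatory signals through NF-kappaB, stood first with a CV of 112%. It had 234, 263, 1455, 192 and 288 RPM, so that mouse 3 alone was high. miR-155-5p, another miRNA of activated immune cells, was also highest in mouse 3, at 15.7 RPM against 5.35 to 5.88 RPM in the others, on 24 reads, and was picked once its values had been seen. Other immune names were not highest there: miR-142-5p had 352 RPM, miR-142-3p 34.1 RPM, miR-223-3p 13.8 RPM and miR-150-5p 316 RPM in mouse 3, all within the range of the other mice. miR-99b-5p had 2192, 993, 1875, 463 and 407 RPM, with the 2 mice of the shorter name list lowest. miR-101a-3p (381, 1524, 294, 1530.4 and 1369 RPM) and miR-301a-3p (36.7, 189, 63.0, 191 and 236 RPM) were low in mice 1 and 3. The joined name of let-7a-1-3p and let-7c-2-3p was also low there, at 92.5 and 69.5 RPM against 369 to 413 RPM. miR-378a-5p was highest in those animals, at 406 and 228 RPM against 105 to 138 RPM.

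**Figure D4:**
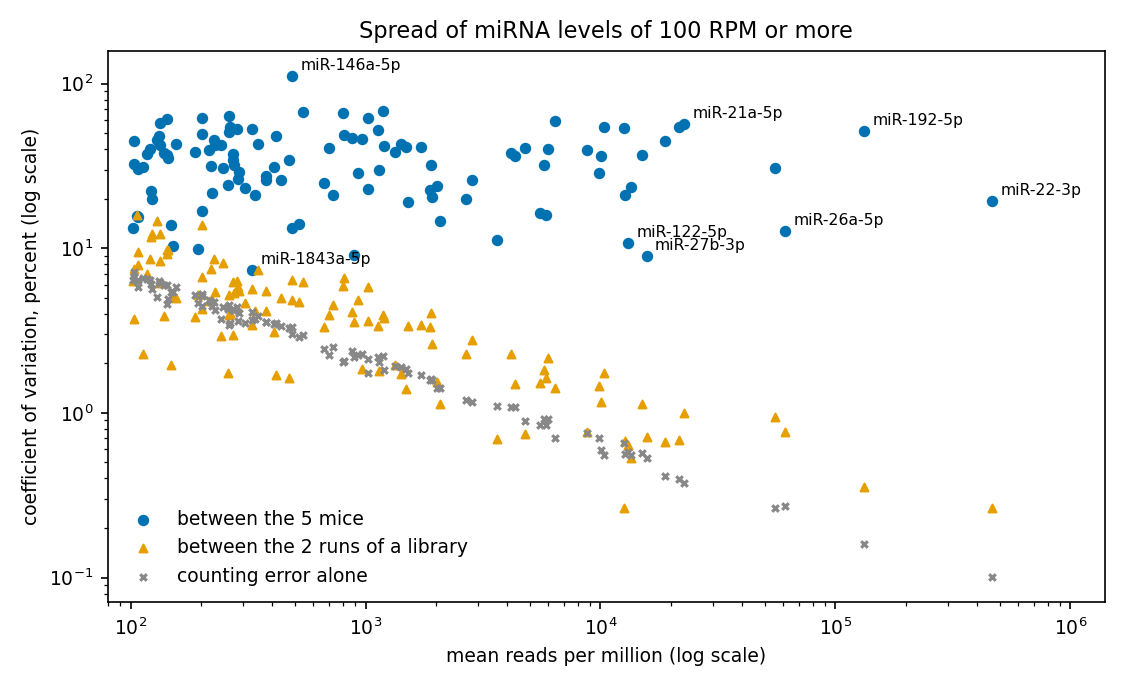
CV of each of 112 miRNAs of 100 RPM or more (percent, log axis) against its mean level in RPM (log axis): blue points between the 5 mice, orange triangles between the 2 runs of a library, grey crosses for counting error alone. The median is 34.9% between mice and 3.89% between runs, and miR-146a-5p is highest at 112%.

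The base composition of the mature miRNAs went along with the split between mice. For the 95 of the 112 miRNAs with a sequence, GC content was set against the deviation of log2 RPM from its mean over mice. Spearman's rho across miRNAs was 0.67 in mouse 1 and 0.49 in mouse 3, and -0.45, -0.58 and -0.61 in mice 2, 4 and 5. These miRNAs share libraries and a fixed total, and rho is given as a description. Since deviations are taken from a mean over the same 5 mice, a rise in some mice brings a fall in others. The 5 values of rho are therefore not independent. The 21 miRNAs under 40% GC had a median log2 deviation of -0.95 in mouse 1 and -0.28 in mouse 3, and of 0.32, 0.47 and 0.59 in mice 2, 4 and 5. The 29 at 50% or more had 0.75 and 0.42 in mice 1 and 3, and -0.29, -0.28 and -0.31 in the others. miR-101a-3p (33.3% GC) and miR-21b (30.4%) are of the first kind, miR-99b-5p and miR-92b-3p (63.6% each) of the other. Some under 40% GC went against their group: let-7a-5p (36.4%) deviated by 0.78 in mouse 1 and -0.60 in mouse 2. miR-29b-3p (34.8%) deviated by 0.25 in mouse 1 and 0.36 in mouse 3. miR-192-5p, at 47.6%, moved with the first although its GC content equals that of the steady miR-27b-3p. Mice 1 and 3 also had the fewest counted miRNA reads. The part of base composition, depth, library preparation or the animals themselves in the split was not tested.

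**Figure D5:**
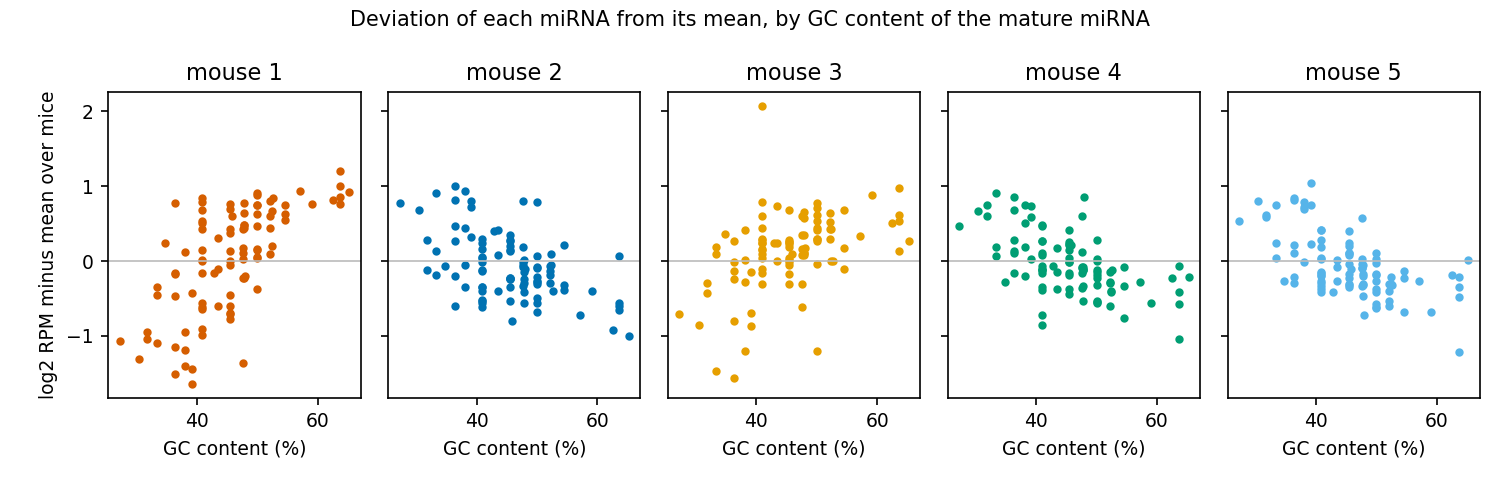
Deviation of log2 RPM from the mean over the 5 mice (vertical axis) against GC content of the mature miRNA (percent) for 95 miRNAs, 1 panel a mouse. The points rise with GC in mice 1 and 3 (rho 0.67 and 0.49) and fall in mice 2, 4 and 5 (-0.45 to -0.61).

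The first base, which the Argonaute pocket is known to read, was U in 53 of these 95 miRNAs (55.8%), A in 21, C in 18 and G in 3. Among all 743 names with a sequence, at any level, it was U in 324 (43.6%), A in 206, C in 151 and G in 62. By reads the order differed, because miR-22-3p starts with A and miR-192-5p with C. Names starting with U held 25.03% to 33.5% of the reads with a sequence, and 55.2% to 68.8% once miR-22-3p was set aside.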

How the data were processed

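Per the labels' protocols, frozen livers gave RNA by the miRNeasy kit, and TruSeq small RNA libraries were made from 1 µg. The deposited files hold the authors' estimated counts per mature miRNA for each run, which need not be whole. The submitters' processing notes list CASAVA. No label or header names the aligner, miRNA release or build. Counts of the 2 runs were summed per mouse without rounding, limited to the 880 shared names, and scaled to RPM. The reads outside those names were 6 to 50.5 a mouse. Seeds and hairpin places came from RefSeq and GENCODE annotation of GRCm38. Reads divided between similar names were left as deposited.

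Named miRNAs are the 20 most abundant, 2 of each marker list with its defining members, the 8 steadiest and 8 most variable of 100 RPM or more, the 8 most abundant and 6 most equal hairpins, and the 10 leading families and clusters. Members and lists were chosen with earlier results of these data known. miR-155-5p, miR-6389, miR-215-5p, miR-151, let-7d, miR-30e and the other compared relatives fall outside that rule and were picked once values had been seen. One group of 5 mice allows no group test; none was run. Steps were tested on simulated data. Python 3.11.15, pandas 2.3.3, scipy 1.17.1, R 4.3.3 and edgeR 4.0.16 (TMM factors, an alternative) were used.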

Additional observations from a re-analysis of the deposited data

Results flagged for a closer look

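In 88 sets of 5 mice (named miRNAs, families, clusters and arms), 2 had a mouse whose gap to its neighbour exceeded 0.71 of the range; chance gives about 4.4 such sets. miR-146a-5p had a gap of 0.924 of its range, with mouse 3 at 1455 RPM and the next mouse at 288 RPM. miR-26b-5p had a gap of 0.724, with mouse 1 at 4249 RPM and the next mouse at 5977 RPM. Among 629 names outside the shared list, miR-1249-3p had 6 reads in mouse 5, above the 3 reads taken as the limit for a count of 0.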

How the results depend on the processing

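The alternatives were all names of the wild-type files, TMM-scaled RPM, RPM without miR-22-3p in the total, each run alone, the median over mice, each mouse left out, each file set alone, other minimums, seeds of bases 2 to 7 and cluster gaps of 3 and 50 kb. Mice 2, 4 and 5 alone, and family members placed by name, were chosen after seeing the data. The share of miR-22-3p moved by less than its SD over mice, and the counts of hairpins by arm by under 1.5 times, in every alternative run on them. The number of miRNAs holding 90% of the reads was 27 without miR-22-3p in the total, 1.5 times the 18 reported, and 17 or 18 in the others. Leaving out 1 mouse gave 43.2% to 48.4% for miR-22-3p, 12704 to 13600.2 RPM for miR-122-5p, 4.25% to 4.75% for let-7, 11.6% to 15.4% for the miR-192 cluster, 194992 to 243127 RPM for the hepatocyte list and 25.8% to 35.4% for the median CV. Without miR-22-3p in the total, miR-122-5p stood at 25413 RPM, the let-7 family at 8.60%, the miR-192 cluster at 23.4% and the hepatocyte list at 385531 RPM, since the same reads were divided by a smaller total. The median CV was 6.50% in mice 4 and 5 alone and 10.4% in mice 2, 4 and 5 alone; the cause was not tested. It was 26.2% with TMM scaling. The 284 miRNAs detected became 179 at 10 RPM in every mouse and 731 at 1 read in any mouse. A different count, of names with a read in a single mouse, was 443 to 619 as sequenced. At the depth of mouse 1 its expected mean over mice was 436. Of 100 other values, 68 of the 85 recomputed without miR-22-3p moved by over 1 SD, and 3 did in mice 4 and 5 alone: let-7f-5p (27684 RPM), miR-34b-5p (1.29 RPM) and the 5p share of miR-140 (58.9%). The miR-23b cluster rose to 1.87% with miRNAs of several places left out of the total. Levels under 2.29 RPM in mouse 1 rest on fewer than 3 reads, and a count of 0 there allows up to that level. No paired analysis was possible because only 1 group was described.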
